A study of Drosophila melanogaster with 22 samples.

Results

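The genes described here are 36 homeobox and POU transcription factors of Drosophila melanogaster, measured by RNA-seq in small pools of larval brain cells. They were taken from the deposited tables by exact match of a listed symbol, and all 36 were found among 15339 gene entries. By the type of homeodomain they fall into 17 genes of the ANTP class (the NK, Bar and related genes), 5 paired-like genes, 4 LIM genes, 5 TALE genes, 2 CUT genes and 3 POU genes. GFP-labelled cells were picked by a robot in lots of 10 from enzyme-treated brains, 30 per dissection, of larvae kept at 25 °C, and 22 libraries in 8 groups were made from them. Neuroblasts, the neural stem cells, were taken at 50 h after hatching in 4 groups of 3 libraries, namely a pool of all kinds and the type II, antennal lobe and mushroom body lineages. A further 3 libraries of mushroom body neuroblasts at 50 h are labelled with a 2 h wait and 3 with 3 washes. Neurons and glia came from wandering larvae, with 2 libraries each, so age and cell type change together between them and the neuroblasts. The labels do not name fly genotypes or GFP drivers, and the pooled group may hold any lineage. No label ties replicates to separate preparations, so a p-value measures the spread between these libraries, which may be technical.

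Homeodomain proteins bind DNA through a conserved helical domain and set positional and cell type identity in the nervous system. In the fly brain, patterning genes such as vnd and ind first divide the neuroectoderm, neuroblasts then carry lineage-specific combinations of homeodomain factors, and further LIM and POU factors act in the neurons born from them, where they direct axon targeting and transmitter choice. TALE proteins such as Hth and Exd act as cofactors of other homeodomain proteins, including the Hox proteins.

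Each library came from a pool of 47 to 124 cells. The depth was 3150371 to 14282246 gene counts per library, and 8958 to 11779 genes had a count. The log CPM correlation of the 2 glia libraries was 0.841 and that of the 2 neuron libraries 0.872, both lower than for any pair of neuroblast replicates (0.953 to 0.977). The 6 neuroblast markers summed to 1342 to 2701 TPM over the neuroblast libraries, 3.07 to 10.9 TPM in neurons and 63.0 to 285 TPM in glia. The 7 neuron markers summed to 3608 to 5070 TPM in neurons and 63.8 to 92.6 TPM in glia, and the 6 glia markers to 1585 to 1924 TPM in glia and 246 to 316 TPM in neurons. The antennal lobe marker ems, itself a homeobox gene, had 76.8 to 105 TPM in antennal lobe neuroblasts and at most 1.12 TPM in the other 2 standard lineages.

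Most of the 36 genes were low in most groups, and few were shared by all cell types. Levels are given in TPM (transcript share scaled to a fixed total, corrected for transcript length), and a gene was counted as present in a group where every library had at least 5 TPM. The noncoding genes CR41602 and CR40677 together took 29.9 to 38.0% of the TPM total in glia and 17.3 to 39.3% in neurons. In the standard neuroblast groups they took 13.8 to 19.6%, so the TPM of other genes is lowered to unequal degrees. Of the 6 standard groups (without the wait and wash libraries), 12 genes were present in none, 11 in 1, 8 in 2, and ct and onecut in 5. Only exd, hth and vvl were present in all 6, and also in both handling groups. Neurons held the most, 18 of 36, against 9 in pooled neuroblasts, 8 in mushroom body, 7 in antennal lobe and 6 in type II neuroblasts, and 7 in glia. The level had to be reached in 2 libraries of neurons or glia but in 3 of each neuroblast group, which is harder to meet. Of all genes, by comparison, 35.6% were present in neurons and 33.9 to 40.4% over the 8 groups. Leaving out antennal lobe replicate 3 or glia replicate 1 raised the number present in that group to 11. In such pools, fewer cells of a type and less RNA per cell cannot be told apart, and a low level may come from a few cells of the pool.

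The degree of restriction was summarised over the mean TPM of the 6 standard groups. The index tau sums 1 minus the ratio of each group to the highest group and divides by the number of groups less 1, so 0 is an even level and 1 a level in a single group. It was lowest for vvl (0.416), exd (0.421) and ct (0.516). It was highest for B-H2 (0.995), Ptx1 (0.991) and Lim3 (0.989), all 3 highest in neurons. The index says nothing of the spread between libraries, and the value for B-H2 rested on 1 neuron library. Reads shared between the similar pairs ara and caup, B-H1 and B-H2, and lbe and lbl were not separated here, so their division within a pair is uncertain.

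**Figure D1:**
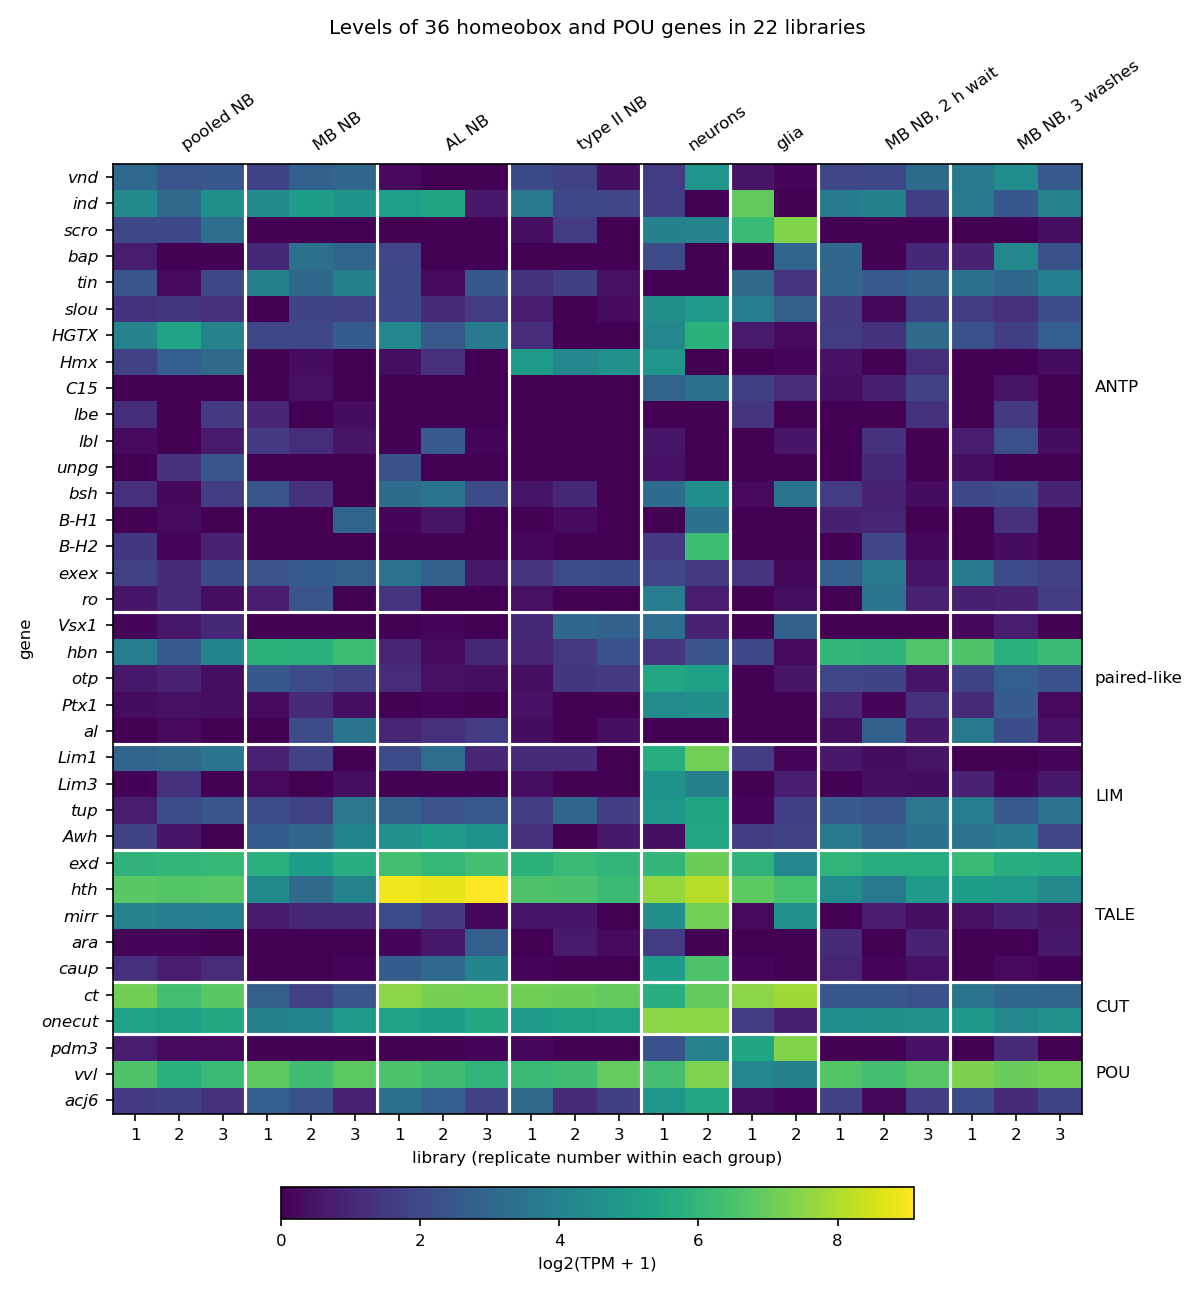
Level of each of the 36 genes (rows, by homeodomain class) in each of the 22 libraries (columns, by group), as log2(TPM + 1); NB, neuroblasts; MB, mushroom body; AL, antennal lobe. The genes exd, hth and vvl reach 5 TPM in every library, with hth lowest in the mushroom body libraries and vvl lowest in glia. The row of hbn is bright in the 9 mushroom body libraries, and 18 genes reach 5 TPM in both neuron libraries.

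Differences between groups were tested on the counts with edgeR's quasi-likelihood test. Each difference is a log2 change ± SE of the first named group over the second. The SE was taken as the size of the log2 change divided by the square root of the test's F statistic. It is approximate, above all for genes with few counts in a group. A gene was called when its adjusted p (Benjamini-Hochberg over all genes tested in that comparison) was below 0.05. Over 11 comparisons, 21 of the 36 genes were called at least once, with 75 calls in all. Single comparisons called 0.0228 to 24.7% of all genes tested. The share of all genes called at least once was not computed, so the 21 genes have no baseline and are a description. The 4 genes unpg, B-H1, ro and ara were too low to be tested anywhere. Calls lost when a library was left out, 1 at a time, are given with the adjusted p without it.

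The TALE genes separated the neuroblast lineages most clearly through hth, whose product carries Exd into the nucleus and acts with it (chromosome 3R, 6410049 to 6439973 in dm3, the build of the deposited coordinates). The level of hth was 482, 439 and 548 TPM in the 3 antennal lobe libraries, 109, 101 and 105 in pooled neuroblasts, 93.2, 89.1 and 72.0 in type II neuroblasts and 19.3, 7.82 and 16 in mushroom body neuroblasts. The 4 groups did not overlap, with the antennal lobe libraries highest and the mushroom body libraries lowest. The log2 change of mushroom body over antennal lobe neuroblasts was -5.10 ± 0.26 (adjusted p = 4.11e-09). Antennal lobe neuroblasts also exceeded type II neuroblasts (2.51 ± 0.23, adjusted p = 4.08e-06) and the pool (2.27 ± 0.23, adjusted p = 1.82e-05). Mushroom body neuroblasts lay below type II neuroblasts (-2.59 ± 0.24, adjusted p = 3.01e-06) and below the pool (-2.83 ± 0.24, adjusted p = 1.53e-06). These 5 calls of hth held in every alternative tried, while type II neuroblasts did not pass against the pool (-0.24 ± 0.22, adjusted p = 0.605).

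In the other cell types hth stood at 201 and 279.8 TPM in the 2 neuron libraries and 112 and 87.3 TPM in the 2 glia libraries. Both neuron libraries lay above both glia libraries and above all pooled neuroblast libraries. Pooled neuroblasts were called below neurons on the CPM scale (-1.25 ± 0.23, adjusted p = 0.00510), but with ERCC spike-in scaling per cell the sign turned to 0.53. Under that scaling the median of all genes moved from 0.18 to 1.94 in this comparison. Neurons were called above glia (1.06 ± 0.26, adjusted p = 0.0235), and this call was lost without pooled neuroblasts replicate 3, glia replicate 2 or neurons replicate 2 (adjusted p 0.0569 to 0.0628). The difference between pooled neuroblasts and glia did not pass (-0.19 ± 0.24, adjusted p = 0.597).

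The Hth partner exd, the fly Pbx gene, varied far less. It ranged from 33.6 to 81.4 TPM over the 18 neuroblast libraries, with 64.9 and 133 TPM in neurons and 59.1 and 17.7 TPM in glia. Of 11 comparisons only mushroom body against antennal lobe neuroblasts was called, where the levels were 53.4, 33.6 and 49.3 and 79.3, 65.0 and 81.4 TPM, and the groups did not overlap. The log2 change was -0.73 ± 0.19 (adjusted p = 0.0127), and the call was lost without mushroom body neuroblasts replicate 2 (adjusted p = 0.105).

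**Figure D2:**
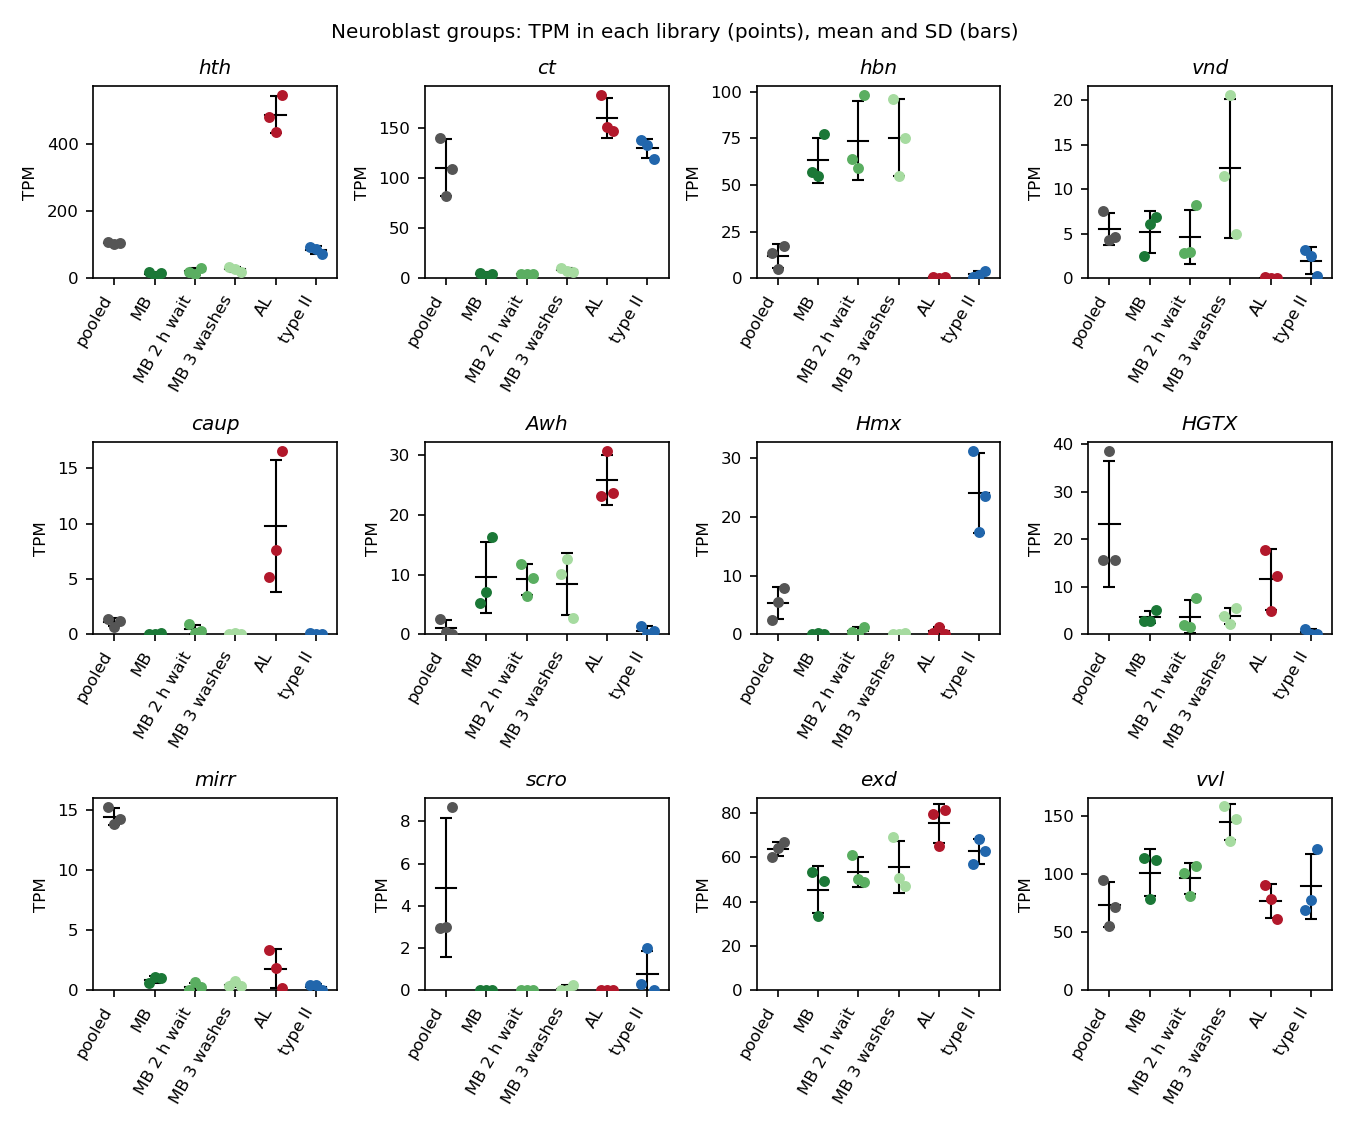
TPM of 12 genes in each library (points) of the 6 neuroblast groups, with the mean and SD of 3 libraries (bars) and a linear axis from 0. The antennal lobe libraries are highest for hth, Awh and caup, the mushroom body libraries of all 3 handlings are lowest for ct and highest for hbn, and the type II libraries are highest for Hmx.

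The 3 Iroquois genes mirr, ara and caup pattern the dorsal eye and the notum and lie side by side on chromosome 3L (12573772 to 12702491 in dm3, 129 kb). They did not share 1 pattern here. The level of mirr was 15.3, 13.8 and 14.3 TPM in pooled neuroblasts, 3.37, 1.88 and 0.159 in antennal lobe, 0.587, 1.09 and 1.02 in mushroom body and 0.448, 0.434 and 0 in type II neuroblasts. All 3 pooled libraries so lay above all libraries of the 3 lineages. The log2 change against the pool was -3.92 ± 0.80 (adjusted p = 0.00167) for mushroom body, -2.96 ± 0.74 (adjusted p = 0.00761) for antennal lobe and -5.46 ± 0.89 (adjusted p = 0.000276) for type II neuroblasts. In neurons mirr had 21.8 and 141 TPM and in glia 0.187 and 23.0 TPM, and none of the 3 cell type comparisons passed. The antennal lobe calls and mushroom body calls of mirr were lost in 1 fit of all 22 libraries.

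Among the neuroblasts caup was highest in the antennal lobe group, with 5.22, 7.58 and 16.5 TPM there against 1.43, 0.671 and 1.22 TPM in the pool. In mushroom body neuroblasts it had 0, 0 and 0.128 TPM and in type II neuroblasts 0.0981, 0 and 0 TPM, each a single read over 3 libraries. The antennal lobe libraries overlapped with none of these groups. By summed counts caup was 211-fold (95% counting interval 37.7 to 8359.5) higher in antennal lobe than in mushroom body neuroblasts (adjusted p = 4.05e-05). Against type II neuroblasts the ratio was 260.2-fold (95% counting interval 46.4 to 10302) (adjusted p = 2.89e-05).

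Antennal lobe neuroblasts also passed against the pool (3.19 ± 0.75, adjusted p = 0.00507), a call lost without antennal lobe neuroblasts replicate 3 (adjusted p = 0.0774). The pool itself exceeded mushroom body neuroblasts 22.2-fold (95% counting interval 3.80 to 895) (adjusted p = 0.0138) and type II neuroblasts 27.4-fold (95% counting interval 4.68 to 1103) (adjusted p = 0.0144). These 2 calls were lost without mushroom body neuroblasts replicate 1 or 2 (adjusted p 0.0529 to 0.0583) and without type II neuroblasts replicate 2 or 3 (adjusted p 0.0546 to 0.0739), respectively.

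Neurons held the most caup, at 33.2 and 94.1 TPM, and glia 0.0822 and 0 TPM. Both neuron libraries exceeded every other library of the series for this gene. Pooled neuroblasts were called lower than neurons (-5.82 ± 0.90, adjusted p = 0.00201), and neurons were 1489-fold (95% counting interval 267 to 58840.3) higher than glia (adjusted p = 0.00180). Pooled neuroblasts were 23.2-fold (95% counting interval 3.97 to 936) higher than glia (adjusted p = 0.0372), and this call was lost without any 1 of the pooled neuroblast libraries, glia replicate 2 or neurons replicate 2 (adjusted p 0.0514 to 0.106). The third gene, ara, reached at most 5.74 TPM, in 1 antennal lobe library, and had a count in 11 of 22 libraries.

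**Figure D3:**
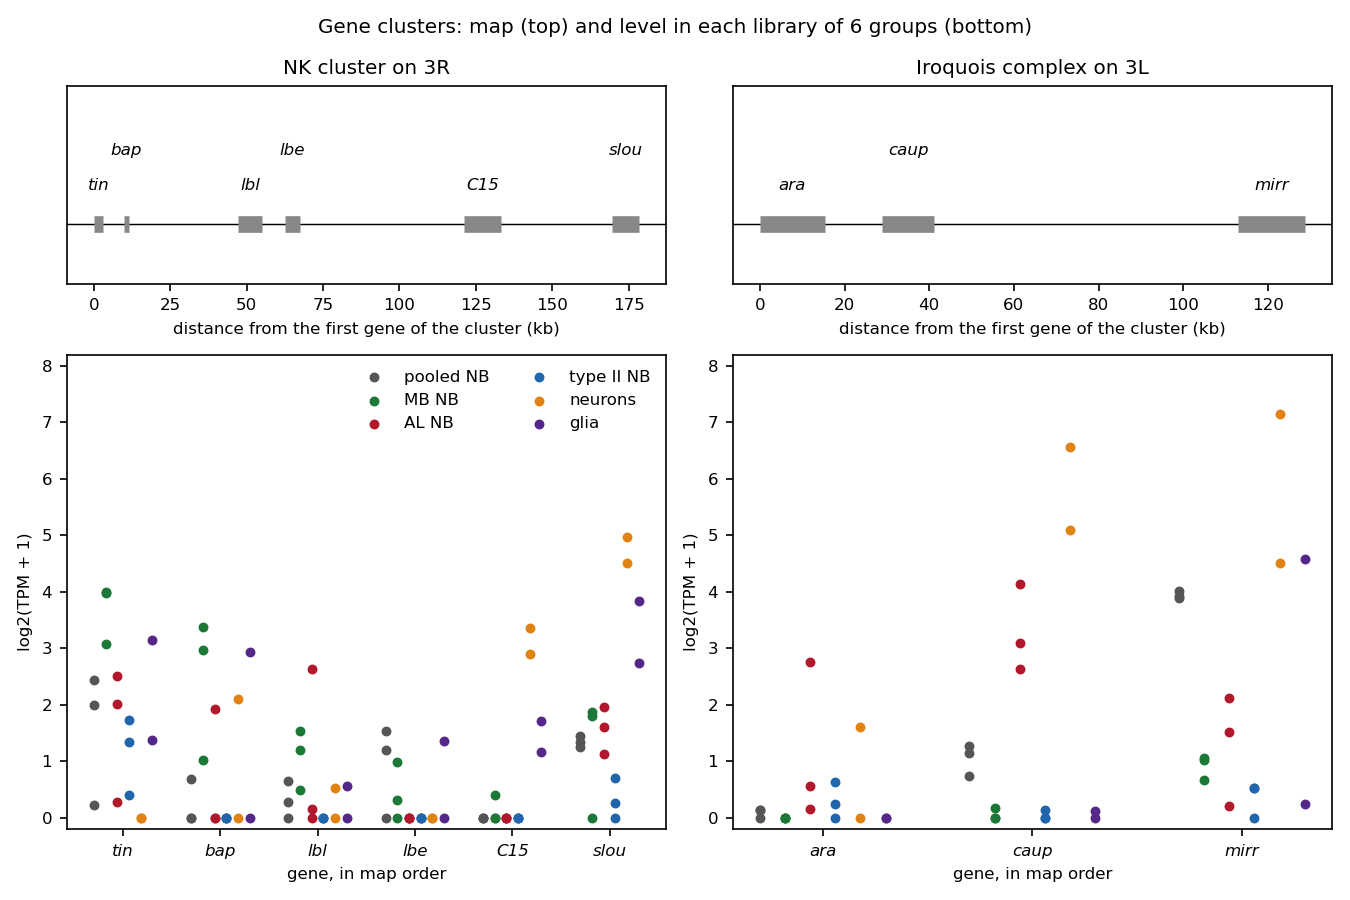
Top, position of the members of the NK cluster on 3R and of the Iroquois genes on 3L, as distance in kb from the first gene; bottom, log2(TPM + 1) of each gene in each library of the 6 standard groups. Within each cluster the groups with the highest level differ from gene to gene: mushroom body neuroblasts for tin, neurons for C15 and slou, antennal lobe neuroblasts and neurons for caup, and pooled neuroblasts and neurons for mirr.

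Of the CUT genes, ct is known for sensory organ identity and for the shape of dendrites (chromosome X, 7526255 to 7542183 in dm3). Mushroom body neuroblasts had 5.78, 2.42 and 4.39 TPM of ct, antennal lobe 182, 151 and 146, type II 137, 133 and 119 and pooled neuroblasts 139.7, 82.4 and 109 TPM. Mushroom body libraries with the wait had 4.55, 4.59 and 3.94 TPM and those with the washes 10.4, 7.22 and 6.81 TPM. All 9 mushroom body libraries lay below every other library of the series. The log2 change was -5.27 ± 0.28 (adjusted p = 5.98e-09) against antennal lobe, -4.99 ± 0.28 (adjusted p = 8.89e-09) against type II and -4.69 ± 0.27 (adjusted p = 2.68e-08) against pooled neuroblasts. These 3 calls held in every alternative tried, and the 3 comparisons among the other neuroblast groups did not pass (log2 changes of 0.28, 0.58 and 0.30).

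Outside the neuroblasts ct had 184 and 221 TPM in glia and 52.4 and 120.1 TPM in neurons, and both glia libraries lay above all neuron and pooled neuroblast libraries. The pool was called below glia (-1.13 ± 0.32, adjusted p = 0.0384), and the sign turned to 2.41 with ERCC spike-in scaling per cell, where the median of all genes was 3.45. Neurons were called below glia (-1.48 ± 0.36, adjusted p = 0.0232), and the sign turned to 0.23 with that scaling, where the median was 1.52. Without any 1 of the pooled neuroblast libraries or glia replicate 1 or 2 (adjusted p 0.0591 to 0.140), the first of these calls was lost. The second was lost without pooled neuroblasts replicate 3, glia replicate 1 or 2 or neurons replicate 1 (adjusted p 0.0519 to 0.0881).

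The other CUT gene, onecut, belongs to a family of neural factors (chromosome 4, 619181 to 628119 in dm3). Neurons had 185 and 188 TPM, pooled neuroblasts 36.4, 34.7 and 44.9 TPM and glia 2.11 and 0.735 TPM. The 3 groups did not overlap, with neurons highest and glia lowest. Pooled neuroblasts were called below neurons (-2.36 ± 0.44, adjusted p = 0.00536) and above glia (4.49 ± 0.56, adjusted p = 0.000999). Neurons were above glia by a log2 change of 6.85 ± 0.63 (adjusted p = 0.000259). The calls against glia held in every alternative, and the call against neurons was lost with ERCC spike-in scaling only.

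Across lineages onecut differed little. Mushroom body neuroblasts had 14.7, 16.4 and 30.3 TPM, antennal lobe 36.7, 32.6 and 45.4 and type II neuroblasts 30.2, 35 and 37.9 TPM. The mushroom body libraries were below the antennal lobe libraries and overlapped with the type II libraries. Mushroom body neuroblasts were called lower than antennal lobe (-0.89 ± 0.24, adjusted p = 0.0143), type II (-0.75 ± 0.24, adjusted p = 0.0448) and pooled neuroblasts (-0.85 ± 0.24, adjusted p = 0.0171). The first call was lost without antennal lobe neuroblasts replicate 3 or mushroom body neuroblasts replicate 1 or 2 (adjusted p 0.0665 to 0.0891). Without antennal lobe neuroblasts replicate 1, mushroom body neuroblasts replicate 1 or 2 or any 1 of the type II neuroblast libraries (adjusted p 0.0560 to 0.199), the second was lost. The third was lost without pooled neuroblasts replicate 3 or mushroom body neuroblasts replicate 1 or 2 (adjusted p 0.0766 to 0.0923).

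Among the paired-like genes hbn, a gene of the anterior brain, followed the mushroom body (chromosome 2R, 16842169 to 16848414 in dm3). Its level was 57.2, 55.0 and 77.2 TPM in the standard mushroom body libraries, 64.0, 59.1 and 98.1 after the wait and 96.1, 54.6 and 75.4 after the washes. Pooled neuroblasts had 13.5, 4.98 and 17.3 TPM, antennal lobe 0.933, 0.198 and 1.00, type II 0.941, 1.82 and 3.87, neurons 1.66 and 4.34 and glia 2.95 and 0.183 TPM. Each of the 9 mushroom body libraries lay above every other library. Mushroom body neuroblasts exceeded antennal lobe neuroblasts by a log2 change of 6.39 ± 0.64 (adjusted p = 1.08e-07), type II by 4.84 ± 0.58 (adjusted p = 2.14e-06) and the pool by 2.45 ± 0.49 (adjusted p = 0.00142). The last call was lost with ERCC spike-in scaling, where the median of all genes was -0.68.

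The pool in turn exceeded the other 2 lineages in hbn. The log2 change was -3.94 ± 0.61 (adjusted p = 0.000113) for antennal lobe neuroblasts and -2.39 ± 0.56 (adjusted p = 0.00900) for type II neuroblasts, and the latter call was lost without type II neuroblasts replicate 1 (adjusted p = 0.0664). Antennal lobe and type II neuroblasts did not pass against each other (-1.55 ± 0.68, adjusted p = 0.146).

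The neighbour of hbn on 2R, otp, which lies within 77.3 kb of it from outer end to outer end, was highest in neurons. Neurons had 42.6 and 35.7 TPM of otp and 20.2 and 21.6 TPM of Ptx1, the fly Pitx gene. Over the 18 neuroblast libraries otp ranged from 0.253 to 5.52 TPM and Ptx1 from 0 to 5.07 TPM, and glia had at most 0.394 TPM of otp and no count of Ptx1. Both neuron libraries lay above all others for both genes.

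Both genes were called lower in pooled neuroblasts than in neurons, for otp (-6.22 ± 1.25, adjusted p = 0.00720) and for Ptx1 (-6.29 ± 1.20, adjusted p = 0.00719). The Ptx1 call was lost without pooled neuroblasts replicate 1 or 3 (adjusted p 0.0504 to 0.0511). Neurons were above glia for otp (7.41 ± 1.60, adjusted p = 0.0139) and at least 127-fold higher for Ptx1 (adjusted p = 0.00746), with glia set at 3 counts over the group. In mushroom body neuroblasts otp had 4.65, 3.35 and 2.47 TPM, above 0.525, 0.865 and 0.276 TPM in the pool without passing (adjusted p = 0.120).

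The eye and optic lobe gene Vsx1 had 1.000, 7.20 and 6.15 TPM in type II neuroblasts, no count in mushroom body neuroblasts and at most 0.120 TPM in antennal lobe neuroblasts. It was tested in the cell type comparisons alone, where its 2 neuron libraries stood at 8.66 and 0.832 and its 2 glia libraries at 0 and 6.01 TPM, and it was not called. The antennal and leg gene al had at most 11.5 TPM and no count in neurons or glia.

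The ANTP class, with 17 genes, held most of the genes that were present in none of the 6 standard groups. The columnar gene vnd, which specifies ventral neuroectoderm, showed its clearest difference by its near absence in antennal lobe neuroblasts, at 0.180, 0 and 0 TPM. The level was 2.57, 6.15 and 6.93 TPM in mushroom body, 3.17, 2.49 and 0.287 in type II and 7.59, 4.33 and 4.70 in pooled neuroblasts. Every library of these groups lay above every antennal lobe library. With 2 reads over the antennal lobe group, vnd was 92.8-fold (95% counting interval 25.0 to 777) higher in mushroom body neuroblasts (adjusted p = 0.000346). The pool was 91.1-fold (95% counting interval 24.9 to 758) higher (adjusted p = 0.000377) and type II neuroblasts 35.8-fold (95% counting interval 9.37 to 304) higher (adjusted p = 0.00455) than antennal lobe neuroblasts.

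In neurons vnd had 2.08 and 25.7 TPM and in glia 0.379 and 0.0882 TPM, so the neuron group rested mostly on its second library. Neurons were called above glia (5.48 ± 1.67, adjusted p = 0.0492), a call lost without any 1 of the pooled neuroblast libraries, glia replicate 1 or 2 or neurons replicate 2 (adjusted p 0.0725 to 0.195). The intermediate columnar gene ind was called nowhere, and its libraries disagreed within groups. Antennal lobe neuroblasts had 33.9, 40.7 and 0.534 TPM of ind and glia 119 and 0 TPM. Its other neuroblast levels were 19.0, 7.95 and 23.0 TPM in the pool, 19.7, 32.4 and 25.4 in mushroom body and 11.6, 2.91 and 2.85 in type II neuroblasts. In the glia library with 119 TPM of ind, the neuroblast markers summed to 285 TPM and in the other to 63.0 TPM; their part in the result was not tested.

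The NK gene scro, an NK2-type factor of brain and optic lobe, was highest in glia (3LHet, 207678 to 217666 in dm3). Glia had 68.6 and 165 TPM, neurons 15.2 and 15.8 TPM and pooled neuroblasts 2.94, 3.00 and 8.66 TPM. The 3 groups did not overlap. No read of scro was found in mushroom body or antennal lobe neuroblasts, and type II neuroblasts had 0.283, 2.01 and 0 TPM.

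Pooled neuroblasts were called below glia for scro (-4.83 ± 0.74, adjusted p = 0.00284), and neurons below glia (-3.07 ± 0.81, adjusted p = 0.0301). The latter call was lost without glia replicate 2 or neurons replicate 1 or 2 (adjusted p 0.0739 to 0.109). The pool exceeded mushroom body neuroblasts at least 22.4-fold (adjusted p = 0.0119) and antennal lobe neuroblasts at least 42.0-fold (adjusted p = 0.00565), with 3 counts as the floor over the group. The mushroom body call was lost without pooled neuroblasts replicate 3 (adjusted p = 0.0588). With ERCC spike-in scaling per cell both calls against glia were lost, for the pool (-1.42, adjusted p = 0.208) and for neurons (-1.36, adjusted p = 0.336). The median of all genes was 3.45 and 1.52 there. Against neurons the pool did not pass (-1.76 ± 0.69, adjusted p = 0.0946).

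HGTX, the fly Nkx6 gene, which guides motor axons, was nearly absent from type II neuroblasts and glia. Type II neuroblasts had 1.24, 0 and 0 TPM, mushroom body 2.90, 2.89 and 5.22, antennal lobe 17.8, 4.88 and 12.2 and pooled neuroblasts 15.7, 38.5 and 15.6 TPM. The type II libraries lay below all libraries of the other 3 groups. The log2 change was -5.52 ± 0.83 (adjusted p = 0.000224) for type II against pooled neuroblasts and 4.59 ± 0.82 (adjusted p = 0.000868) for antennal lobe against type II neuroblasts. Mushroom body neuroblasts exceeded type II neuroblasts (2.95 ± 0.84, adjusted p = 0.0294) and lay below the pool (-2.58 ± 0.67, adjusted p = 0.0138). The former call was lost without any 1 of the mushroom body neuroblast libraries or type II neuroblasts replicate 2 or 3 (adjusted p 0.0506 to 0.121). Without pooled neuroblasts replicate 2 or mushroom body neuroblasts replicate 1 or 2 (adjusted p 0.0615 to 0.0648), the latter was lost.

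Neurons had 17.5 and 57.0 TPM of HGTX and glia 0.579 and 0.215 TPM, without overlap. Pooled neuroblasts were above glia (5.56 ± 1.13, adjusted p = 0.0110), a call lost without pooled neuroblasts replicate 2 (adjusted p = 0.0513). Neurons were above glia by 6.23 ± 1.19 (adjusted p = 0.00831), and pooled neuroblasts and neurons did not pass against each other (-0.67 ± 0.83, adjusted p = 0.589).

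Hmx, the H6-like homeobox gene, was highest in type II neuroblasts among the neuroblast groups (chromosome 3R, 13384652 to 13394126 in dm3). Its levels were 31.2, 17.5 and 23.5 TPM in type II, 2.51, 5.60 and 7.92 in pooled, 0.250, 1.32 and 0 in antennal lobe and 0, 0.219 and 0 in mushroom body neuroblasts. The type II libraries lay above all other neuroblast libraries. Type II neuroblasts were 326-fold (95% counting interval 58.2 to 12916) higher than mushroom body neuroblasts (adjusted p = 1.02e-05), and antennal lobe neuroblasts lay below them (-5.55 ± 0.81, adjusted p = 4.45e-05). Against the pool type II neuroblasts were higher (2.25 ± 0.66, adjusted p = 0.0420), but this call was lost without any 1 of the pooled neuroblast libraries or any 1 of the type II neuroblast libraries (adjusted p 0.0568 to 0.215).

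The pool exceeded mushroom body neuroblasts 66.6-fold (95% counting interval 11.8 to 2650.2) in Hmx (adjusted p = 0.000794). For antennal lobe neuroblasts over the pool the log2 change of Hmx was -3.30 ± 0.77 (adjusted p = 0.00500). In 1 fit of all 22 libraries these calls were lost (adjusted p = 0.0802 for mushroom body, adjusted p = 0.230 for antennal lobe). So were the calls of type II neuroblasts against antennal lobe neuroblasts (adjusted p = 0.0669) and against the pool (adjusted p = 0.642). The neuron libraries differed, with 25.5 and 0 TPM, and glia had 0 and 0.123 TPM. No cell type comparison of Hmx passed.

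The 6 NK cluster genes tin, bap, lbl, lbe, C15 and slou, known mainly from mesoderm, muscle and leg, lie within 178 kb on chromosome 3R (17204701 to 17383004 in dm3). Of these, bap, lbl and lbe were present in no group. The heart gene tin had 14.7, 7.46 and 15 TPM in mushroom body neuroblasts and 6.97, 4.85 and 5.96 and 9.70, 7.27 and 14.2 TPM with the wait and the washes. Pooled neuroblasts had 4.41, 0.174 and 2.97 TPM, antennal lobe 3.03, 0.214 and 4.71 and type II 1.53, 2.31 and 0.323 TPM, all below the lowest standard mushroom body library. No comparison of tin passed, the smallest adjusted p being 0.0775 for mushroom body against type II neuroblasts.

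The leg gene C15 had 6.44 and 9.31 TPM in neurons, 2.29 and 1.25 TPM in glia and no read in pooled neuroblasts. Neurons were at least 51.8-fold (adjusted p = 0.0184) and glia at least 13.1-fold (adjusted p = 0.0442) above the pool, set at 3 counts over the group. The neuron call was lost without any 1 of the pooled neuroblast libraries or neurons replicate 2 (adjusted p 0.0610 to 0.0649). The glia call was lost without any single library of the 7 in the fit (adjusted p 0.0689 to 0.131).

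The muscle gene slou had 21.7 and 30.5 TPM in neurons, 13.3 and 5.69 TPM in glia and 1.54, 1.74 and 1.39 TPM in the pool, without overlap. The pool was called below neurons (-4.11 ± 0.98, adjusted p = 0.0157), a call lost without any 1 of the pooled neuroblast libraries (adjusted p 0.0777 to 0.0853). It was also lost with ERCC spike-in scaling per cell (adjusted p = 0.102). The pool did not pass against glia (adjusted p = 0.0608).

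Of the remaining ANTP genes, bsh, which marks several optic lobe neuron types, had 8.02 and 20.9 TPM in neurons and 8.35, 10.6 and 3.29 TPM in antennal lobe neuroblasts. In type II neuroblasts it had 0.421, 1.09 and 0 TPM, below the antennal lobe libraries, and the difference did not pass (3.80 ± 1.33, adjusted p = 0.0654). The Bar genes B-H2 and B-H1 act in the eye and in sensory organs and lie within 88.7 kb on chromosome X. B-H2 had 1.90 and 76.3 TPM in neurons, so that 1 neuron library carried the group, and no read in glia.

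Neurons were at least 239.8-fold above glia for B-H2 (adjusted p = 0.0316), and the call was lost without pooled neuroblasts replicate 1, glia replicate 1 or 2 or neurons replicate 2 (adjusted p 0.05001 to 0.163). The same neuron library had the highest level of B-H1, 9.67 TPM, while the other had none. The motor neuron gene exex had a count in all 22 libraries, at most 12.5 TPM, and was called nowhere. The photoreceptor gene ro reached 13.5 TPM in 1 neuron library, lbe at most 1.90, unpg 4.40, lbl 5.18 and bap 18.2 TPM. The annotation places CG5500 on the other strand over ro, with 520 counts against 109 for ro, and without known strand their reads cannot be told apart.

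Of the 4 LIM genes, Lim1, Lim3 and tup were highest in neurons. Lim3 and tup, which together set motor neuron identity and lie within 223 kb on chromosome 2L, had 24.1 and 14.6 TPM of Lim3 and 26.9 and 39.5 TPM of tup in the 2 neuron libraries. Pooled neuroblasts had 0.0698, 1.45 and 0 TPM of Lim3 and 0.619, 3.23 and 4.38 TPM of tup, and glia at most 0.629 and 2.19 TPM. Both neuron libraries lay above these, yet neither gene passed against the pool (adjusted p = 0.0726 for Lim3, adjusted p = 0.0665 for tup) or against glia (adjusted p = 0.113 and adjusted p = 0.0673).

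Lim1 had 49.1 and 142 TPM in neurons, 6.58, 7.96 and 10.8 TPM in pooled neuroblasts and 2.16 and 0.0872 TPM in glia. The 3 groups did not overlap. The pool was called below neurons (-3.49 ± 0.97, adjusted p = 0.0300), a call lost with ERCC spike-in scaling per cell (adjusted p = 0.161). Neurons were called above glia (6.11 ± 1.30, adjusted p = 0.0131). The first call was lost without any 1 of the pooled neuroblast libraries or neurons replicate 2 (adjusted p 0.0783 to 0.160). Without neurons replicate 2 (adjusted p = 0.0529), the second was lost. In the lineages Lim1 was at most 2.49 TPM in mushroom body, 8.46 in antennal lobe and 1.16 TPM in type II neuroblasts, and no difference from the pool passed (adjusted p = 0.0581 for mushroom body, adjusted p = 0.0570 for type II).

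Awh, first known from precursors of the adult epidermis, had 23.2, 30.6 and 23.6 TPM in antennal lobe, 5.29, 7.01 and 16.3 in mushroom body, 2.65, 0.413 and 0 in pooled and 1.41, 0 and 0.510 in type II neuroblasts. Antennal lobe libraries were highest, mushroom body libraries next, and neither overlapped with the pool or the type II libraries. Antennal lobe neuroblasts exceeded type II (5.18 ± 0.98, adjusted p = 0.00148) and pooled neuroblasts (4.65 ± 0.91, adjusted p = 0.00161). Mushroom body neuroblasts exceeded type II (3.77 ± 0.96, adjusted p = 0.0149) and pooled neuroblasts (3.24 ± 0.88, adjusted p = 0.0176). The former mushroom body call was lost without mushroom body neuroblasts replicate 3 or type II neuroblasts replicate 2 or 3 (adjusted p 0.0612 to 0.0709). The latter was lost without pooled neuroblasts replicate 2 or mushroom body neuroblasts replicate 3 (adjusted p 0.0621 to 0.0879). Antennal lobe and mushroom body neuroblasts did not pass against each other (-1.41 ± 0.77, adjusted p = 0.280), and the neuron libraries stood at 0.284 and 44.2 TPM.

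The 3 POU genes had 3 different patterns. pdm3, which acts in axon targeting of olfactory neurons, had 40.3 and 167 TPM in glia, 3.90 and 15.6 TPM in neurons and 0.655, 0.216 and 0.173 TPM in pooled neuroblasts. Its level was at most 1.19 TPM over the 18 neuroblast libraries, and the 3 cell types did not overlap. Pooled neuroblasts were called below glia (-8.40 ± 1.00, adjusted p = 0.000781). They were also called below neurons (-4.73 ± 0.88, adjusted p = 0.00523), a call lost with ERCC spike-in scaling per cell (adjusted p = 0.0592). Neurons were called below glia (-3.67 ± 0.95, adjusted p = 0.0276), a call lost with that scaling too (adjusted p = 0.187). The last call was lost without glia replicate 2 or neurons replicate 1 or 2 (adjusted p 0.0508 to 0.148).

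vvl, which acts in trachea and in dendrite targeting of projection neurons, ranged from 55.3 to 159 TPM over the 18 neuroblast libraries. Neurons had 84.6 and 161 TPM and glia 18.1 and 14.5 TPM, and both glia libraries lay below all others. Neurons were above glia (2.68 ± 0.49, adjusted p = 0.00672) and so was the pool (1.92 ± 0.45, adjusted p = 0.0186). The pool call was lost without pooled neuroblasts replicate 1 or 3 or glia replicate 2 (adjusted p 0.0580 to 0.0859). None of the 6 lineage comparisons of vvl passed, with log2 changes from -0.23 to 0.50.

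acj6, which directs odorant receptor choice and the wiring of olfactory neurons, had 26.9 and 42.6 TPM in neurons and 1.90, 2.29 and 1.44 TPM in the pool. Glia had 0.255 and 0.119 TPM, and the 3 groups did not overlap. The pool was called below neurons (-4.24 ± 0.97, adjusted p = 0.0132), a call lost without any 1 of the pooled neuroblast libraries (adjusted p 0.0678 to 0.0801). It was also lost with ERCC spike-in scaling per cell (adjusted p = 0.0780). With 3 reads in glia, neurons were 167-fold (95% counting interval 56.7 to 813) higher (adjusted p = 0.00751). In antennal lobe neuroblasts acj6 had 9.79, 5.51 and 2.38 TPM, and no lineage comparison passed. The annotation places Pp1-13C within acj6 on the same strand, with 100 counts against 830 for acj6 over all libraries.

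**Figure D4:**
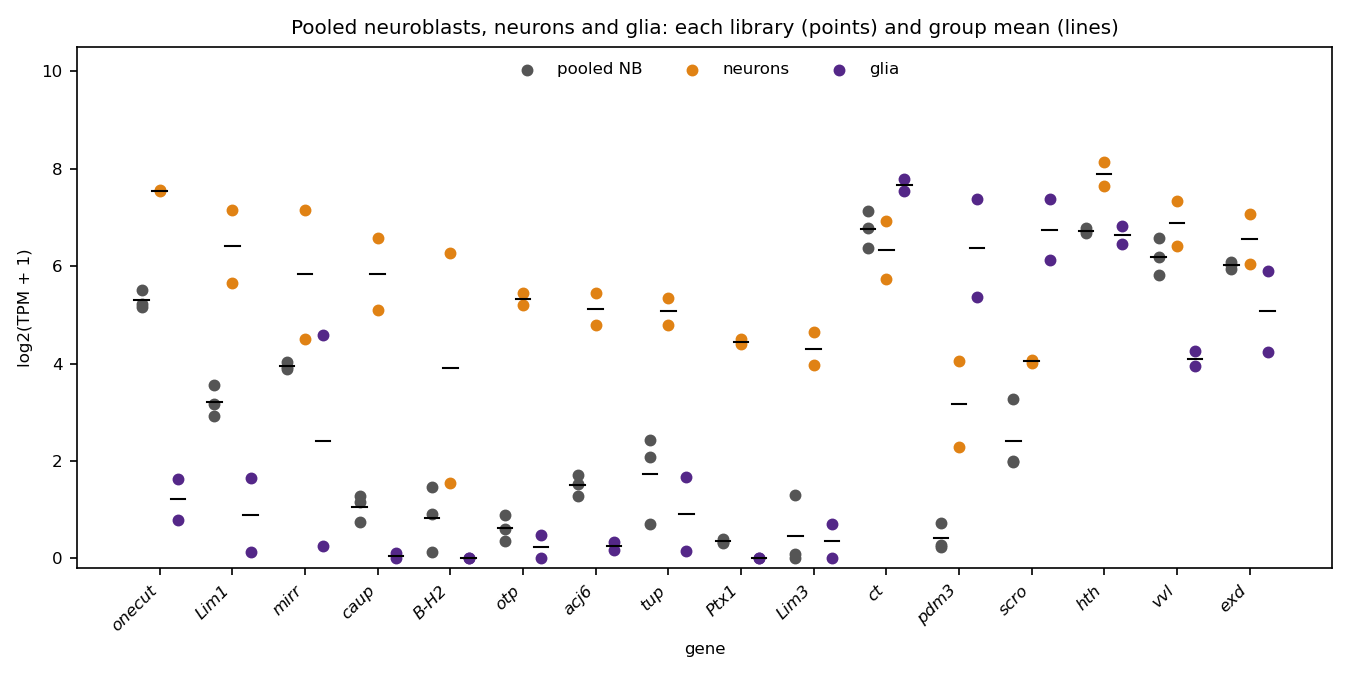
log2(TPM + 1) of 16 genes in each library of pooled neuroblasts (3 libraries), neurons and glia (2 libraries each); lines are group means. For onecut and the 9 genes after it the neuron mean is highest, for ct, pdm3 and scro the glia mean is highest, and for vvl both glia points lie below all others.

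Read by comparison, pooled neuroblasts against neurons had 30 of the 36 genes tested, with 0 called higher and 10 lower (slou, C15, otp, Ptx1, Lim1, hth, caup, onecut, pdm3 and acj6), where 24.7% of all genes tested were called, 10.2% higher and 14.5% lower. The median log2 change of the 30 was -2.73, against 0.18 over all genes. Genes that passed the filter on low counts through neurons alone had to be lower in neuroblasts, so this count and median are descriptions. The same holds for the counts and medians of every comparison below, since a gene could pass the filter through the group where it was high. Leaving out pooled neuroblasts replicate 1 or replicate 3 gave 5 calls. Of all genes, 499 were then higher and 949 lower, and 475 and 919, respectively, against 1007 and 1431 with all libraries. At an unadjusted p below 0.05 edgeR had 15 of the 30 genes and DESeq2 19, and DESeq2 called 14. Of the 62 other homeobox genes 47 were tested, with 4 higher and 12 lower, and of the 7 listed partner proteins CtBP was higher (log2 change 1.35) and tio, tsh and Bx lower (-4.64, -3.31 and -2.46). Of the 5 blood cell markers Cg25C alone was called, lower in the pool than in neurons (-4.44). Of the 6 glia markers Gs2 was lower in the pool (-5.26) and repo, itself a homeobox gene, higher (3.33). The part of these markers in these counts was not tested.

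Pooled neuroblasts against glia gave 4 higher genes (HGTX, caup, onecut and vvl) and 4 lower genes (scro, C15, ct and pdm3) of 30, where 20.6% of all genes were called, 7.0% higher and 13.6% lower. The median log2 change was 0.43, against -0.0033 over all genes. Without any 1 of the 3 pooled libraries there were 4 calls. Of all genes, 206 to 227 were then higher and 630 to 667 lower, against 690 and 1339 with all libraries. Of the other homeobox genes 3 were higher and 10 lower, among them the glial factor repo (-7.88), and of the partners tio was lower (-4.26). Markers of other cell types moved with glia here. Of the 5 blood cell markers 4 were called lower in the pool, among them Cg25C (-6.45), srp (-5.47) and vkg (-5.31), and nimC1, which had no count in the pool. The 5 summed to 61.2 to 204 TPM in glia, 25.7 to 44.1 TPM in neurons and 2.20 to 3.49 TPM in the pool. Of the 7 neuron markers 4 were also lower in the pool, namely n-syb (-4.61), VAChT (-4.47), Syt1 (-4.06) and Gad1 (-3.36), with sums of 63.8 to 92.6 TPM in glia and 32.3 to 47.9 TPM in the pool. Their part in these counts was not tested.

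Neurons against glia gave 11 higher genes and 3 lower genes (ct, pdm3 and scro) of 30, where 20.1% of all genes were called, 9.37% higher and 10.8% lower. The median log2 change was 2.22, against -0.23 over all genes. Without neurons replicate 2 there were 9 calls. Of the other homeobox genes 8 were higher and 5 lower. The neuroblast markers summed to less in neurons than in glia, with ase at 0 in both neuron libraries. The blood cell marker vkg was lower in neurons (-6.89). The part of these markers in the counts was not tested.

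Among the lineages 23 of the 36 genes were tested. Mushroom body against antennal lobe neuroblasts gave 2 higher (vnd and hbn) and 5 lower genes (exd, hth, caup, ct and onecut), where 11.8% of all genes were called, 5.88% higher and 5.96% lower. Mushroom body against type II neuroblasts gave 3 higher (HGTX, hbn and Awh) and 4 lower genes (Hmx, hth, ct and onecut), against 10.4% of all genes, 5.63% higher and 4.72% lower. Without type II neuroblasts replicate 2 or replicate 3 there were 4 calls. Of all genes, 311 were then higher and 266 lower, and 311 and 319, respectively, against 521 and 437 with all libraries. Antennal lobe against type II neuroblasts gave 4 higher (HGTX, Awh, hth and caup) and 2 lower genes (vnd and Hmx), against 11.4% of all genes, 6.08% higher and 5.34% lower. The median log2 changes were -0.73, 0.91 and 0.92, each with a median over all genes of at most 0.03.

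Against the pool, which may hold cells of any lineage, mushroom body neuroblasts had 2 higher (hbn and Awh) and 8 lower genes (scro, HGTX, Hmx, hth, mirr, caup, ct and onecut), where 14.4% of all genes were called, 8.92% higher and 5.46% lower. Antennal lobe neuroblasts had 3 higher (Awh, hth and caup) and 5 lower genes (vnd, scro, Hmx, hbn and mirr), against 17.0% of all genes, 10.0% higher and 7.02% lower. Type II neuroblasts had 1 higher gene (Hmx) and 4 lower genes (HGTX, hbn, mirr and caup), against 5.92% of all genes, 3.72% higher and 2.21% lower. Without any 1 of the type II libraries there were 3 calls. Of all genes, 191 to 337 were then higher and 126 to 164 lower, against 344 and 204 with all libraries. The 3 comparisons share the pooled libraries. Markers of other cell types also differed from the pool. Of 6 neuron markers tested, Syt1, n-syb and elav were called higher in mushroom body (log2 changes of 4.46, 2.75 and 0.69) and antennal lobe neuroblasts (4.30, 2.72 and 0.95), and elav alone in type II neuroblasts (0.57). The sum of the 7 neuron markers was 76.9 to 105 TPM in mushroom body, 88.0 to 106 in antennal lobe, 56.9 to 65.0 in type II and 32.3 to 47.9 TPM in pooled neuroblasts. The blood cell marker srp was higher in mushroom body (4.27) and antennal lobe neuroblasts (4.43). The sum of the 5 blood cell markers was 8.85 to 11.3, 7.81 to 13.4, 2.21 to 4.05 and 2.20 to 3.49 TPM in mushroom body, antennal lobe, type II and pooled neuroblasts. Of the glia markers repo was lower (-5.14) and nrv2 higher (0.45) in antennal lobe neuroblasts, and nrv2 was higher in type II neuroblasts (0.49). Of the 3 intermediate progenitor markers erm was lower in mushroom body (-4.72), antennal lobe (-6.37) and type II neuroblasts (-5.55). The marker opa was higher in mushroom body (2.64) and lower in antennal lobe (-2.11) and type II neuroblasts (-4.49). The 3 summed to 51.3 to 80.5 TPM in the pool and 177 to 220 TPM in mushroom body neuroblasts. Their sum was 5.86 to 12.5 TPM in antennal lobe and 0.362 to 4.51 TPM in type II neuroblasts. The part of these markers in the counts was not tested.

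For context, 41 of the 62 other homeobox genes were tested among the lineages, and 9 of them were called between mushroom body and antennal lobe neuroblasts. The 4 with the largest change were ems (log2 change -7.30), Rx (7.03), Dr (-5.70) and ap (5.06). Of the 7 partners, tsh was lower in type II (log2 change -4.66) and antennal lobe neuroblasts (-3.00) than in the pool, and higher in mushroom body than in type II neuroblasts (3.45). Ssdp was lower in mushroom body than in antennal lobe (-0.75) and pooled neuroblasts (-0.48). In antennal lobe neuroblasts CtBP (0.61), Ssdp (0.47) and gro (0.45) were higher than in type II neuroblasts, and CtBP (0.46) was higher than in the pool.

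Handling of mushroom body neuroblasts left these genes without a call. After the 2 h wait 0 of 19 tested genes were called by edgeR or by DESeq2, with 1 at an unadjusted p below 0.05 in each (ind in edgeR), where 0.0228% of all genes were called. After the 3 washes 0 of 19 were called by either tool, with 4 (vnd, hth, ct and vvl) at an unadjusted p below 0.05 in edgeR and 3 in DESeq2, where 0.833% of all genes were called. The level of ct was 10.4, 7.22 and 6.81 TPM after the washes against 5.78, 2.42 and 4.39 TPM in the standard libraries, which did not overlap (0.96 ± 0.33, adjusted p = 0.286). vvl had 159, 128 and 147 TPM against 114, 78.1 and 112 TPM, also without overlap (0.51 ± 0.17, adjusted p = 0.251). Over all 9 mushroom body libraries vnd ranged from 2.57 to 20.6 TPM and hth from 7.82 to 33.3 TPM. The washed group was the only 1 of the 8 groups where vnd was present. With ERCC spike-in scaling per cell 8 of the 19 genes were called higher after the washes, where the median of all genes was 0.77. Under that scaling 2126 of the 8766 genes tested were called higher and 8 lower, against 14 and 59 in the main fit.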

How the data were processed

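RNA from sorted cell pools was amplified and sequenced, per the labels' protocols. The deposited count table gives the authors' reads per gene and the deposited TPM table their levels scaled for length. The submitters' processing notes name the tools HTSeq 0.6.1p1, STAR 2.4.0i, Bowtie2 2.1.0, cutadapt 1.7.1 and CASAVA. They list dm3 and also mm10, whose role, like the read strand, is not stated there. Entries without a feature were 7.92 to 23.8% of counts and ambiguous ones 1.03 to 1.76%. These and ERCC entries stayed out of tests.

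The 36 genes, the comparison lists and the markers were chosen with earlier results of these data known. All 36 genes are named. Genes that were called or reached the presence level have values per library where results turn on them, and the others have ranges.

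Counts were fitted with edgeR 4.0.16 in R 4.3.3 (quasi-likelihood, robust, TMM, filterByExpr with a minimum count of 10, Benjamini-Hochberg adjustment). The 3 fits held pooled neuroblasts, neurons and glia (9855 genes), the 4 standard neuroblast groups (9249 genes) and the 3 mushroom body groups (8766 genes). Where a group had 0 counts, a fold is a lower bound at 3 counts over the group. With 1 to 3 counts it has a 95% interval, which covers counting error only, since amplified reads are not independent molecules. The alternatives were RLE and ERCC scaling, no filter, DESeq2 1.42.0, 1 fit of all libraries, a replicate block and leaving out each library. In simulated data with 100 changed genes at each fold, 67% of 16-fold and 18% of 4-fold changes were recovered for pooled neuroblasts against neurons. The shares were 100% and 98% for mushroom body against antennal lobe neuroblasts. Of the unchanged genes, 6 were called in the former comparison and 16 in the latter. The changes were placed only in genes above a minimum mean CPM, and recovery was not split by level. These shares so do not give the recovery of low genes, such as most of those described here.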

Additional observations from a re-analysis of the deposited data

How the results depend on the processing

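Of the 75 calls, 33 held in every alternative, and DESeq2 kept all 75. RLE scaling lost 1 call (onecut, mushroom body against type II) and no filter on low counts lost 2 (C15, pool against glia, and vnd, neurons against glia). The fit of all 22 libraries lost 16 and ERCC scaling per cell lost 14. With ERCC scaling these were slou, Lim1, onecut, pdm3 and acj6 (pool against neurons) and scro and C15 (pool against glia). Neurons against glia lost scro and pdm3 there, and mushroom body against antennal lobe lost exd and onecut. HGTX (mushroom body against type II) and hbn (mushroom body and type II against the pool) were lost as well. ERCC scaling also reversed 3, with log2 changes of 0.53 for hth (pool against neurons), 2.41 for ct (pool against glia) and 0.23 for ct (neurons against glia). Under it the median of all genes was 1.94, 3.45 and 1.52 in these comparisons, and relative to that median all 3 stayed below it. Leaving out a library lost a call in 100 of 740 cases.

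The number of genes called changed by over 1.5 times in these cases. For pooled neuroblasts against neurons it was 6 with ERCC scaling, 16 in the fit of all libraries and 3 with the replicate block. Of all genes, in the same order, 3301 were higher and 828 lower, 2475 and 2212, and 502 and 844. The main fit had 1007 and 1431. For pooled neuroblasts against glia it was 18 with ERCC scaling (17 higher and 1 lower), 13 with DESeq2 and 3 with the block. Of all genes, in the same order, 5648 were higher and 249 lower, 1263 and 2041, and 203 and 585. The main fit had 690 and 1339. For mushroom body against type II it was 11 without the filter and 4 in the fit of all libraries. Of all genes, 701 were then higher and 479 lower, and 198 and 126, against 521 and 437 in the main fit. For antennal lobe against type II it was 10 with ERCC scaling and 13 without the filter. Of all genes, 100 were then higher and 3179 lower, and 783 and 506, against 562 and 494 in the main fit. The fit of all libraries gave 5 for mushroom body against the pool and 2 for type II against the pool. Over all genes it gave 366 higher and 127 lower, and 79 and 61, respectively. The main fit had 825 and 505, and 344 and 204. For the washes it was 8 with ERCC scaling and 1 without the filter. Of all genes, 2126 were then higher and 8 lower, and 38 and 96, against 14 and 59 in the main fit. The counts of ERCC entries behind that scaling were unequal. They were 32696 to 39011 in pooled neuroblasts, 6930, 16505 and 17865 in type II neuroblasts and 699797 and 643610 in glia. The cause of these changes was not tested.

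Leaving out each library in turn gave 5 to 13 calls for pooled neuroblasts against neurons, 4 to 8 against glia and 9 to 13 for neurons against glia. It gave 5 to 8 for mushroom body against antennal lobe, 4 to 10 against type II and 8 to 12 against the pool. For antennal lobe it gave 6 to 9 against type II and 7 to 9 against the pool, for type II against the pool 3 to 6, and 0 for each handling. Where a group was left with 1 library, that library was assumed to vary like the others.

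At 1 TPM in place of 5, 16 genes were present in pooled neuroblasts, 15 in mushroom body, 12 in antennal lobe, 10 in type II neuroblasts, 12 after the wait and 16 after the washes. At 10 TPM, 5 were present in mushroom body neuroblasts and 5 after the washes. Leaving out 1 library gave 9 to 10 for the pool, 8 to 11 for mushroom body, 7 to 11 for antennal lobe, 6 to 7 for type II, 21 to 23 for neurons, 9 to 11 for glia, 6 to 8 after the wait and 8 to 10 after the washes.

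Of same-numbered pairs in the 3 fits, 0 of 6, 1 of 18 and 0 of 9 correlated above 0.1 in their deviations from group means. Libraries that correlated best with their own number were 0 of 7, 5 of 12 and 1 of 9. The means were of 2 or 3 libraries, and deviations within a group of 2 mirror each other. This check so cannot show whether replicate numbers pair the libraries. With the replicate block 16 of the 75 calls were lost. With 2 libraries of neurons and of glia and a biological coefficient of variation of 0.80, moderate cell type differences of low genes may go uncalled. Protein identity between similar members was not run.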
